A study of Mus musculus with 25 samples.

Results

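The CCN family genes Ctgf, Cyr61, Nov, Wisp1 and Wisp2 were followed through the forming mouse palate. They are the 5 of 37406 genes in the deposited table whose symbol is 1 of these 5 names, each listed in 1 row. Tissue was taken by laser capture microdissection, in which cells are cut from a tissue section under the microscope, from wild type CD1 embryos at E14.5, when the palatal shelves have just met at the midline. Each of the 8 groups is a place in the palate, medial, lateral, oral or nasal, in its anterior or its posterior sector. There are 4 libraries of the anterior nasal compartment and 3 of each other compartment, 25 in all, 13 anterior and 12 posterior, with no treatment or mutation in any of them. Medial and lateral pieces divide the shelf across its width and oral and nasal pieces divide it from mouth side to nose side, so the 2 kinds of piece cut the same shelf in different ways.

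CCN proteins are secreted, cysteine-rich proteins of the extracellular matrix. They bind integrins and heparan sulfate proteoglycans and act between matrix, growth factors and cells rather than through a dedicated receptor. Ctgf and Cyr61 are textbook targets of YAP, TAZ and TEAD transcription, of TGF-beta signaling and of serum and stretch, and both take part in cartilage and bone formation. Nov often restrains proliferation and opposes Ctgf in cartilage. Wisp1 and Wisp2 were named as genes induced by Wnt1. Wisp1 is found in mesenchyme where bone forms, and Wisp2 lacks the carboxy-terminal domain that the others carry.

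The genes lie apart from each other except for a pair on 1 chromosome. As the table lists them, Ctgf (gene ID 14219) lies on chromosome 10 from 24315248 to 24318488, Cyr61 (16007) on chromosome 3 from 145309935 to 145312949, and Wisp2 (22403) on chromosome 2 from 163646570 to 163658883. Nov (18133) and Wisp1 (22402) are both on chromosome 15, from 54577483 to 54585316 and from 66722955 to 66754761. The submitters' notes name mm9 as the genome build. No other gene in the table overlaps any of the 5. Of the promoters, only that of Cyr61, under its newer name Ccn1, was in the RefSeq table used here (GRCm38.p6). Its 250 bases before the start, chr3:145649986-145650235 on the minus strand, are shown because Cyr61 is a standard readout of TEAD transcription, and the capitals mark the 1 match to a TEAD motif.
Cyr61 promoter: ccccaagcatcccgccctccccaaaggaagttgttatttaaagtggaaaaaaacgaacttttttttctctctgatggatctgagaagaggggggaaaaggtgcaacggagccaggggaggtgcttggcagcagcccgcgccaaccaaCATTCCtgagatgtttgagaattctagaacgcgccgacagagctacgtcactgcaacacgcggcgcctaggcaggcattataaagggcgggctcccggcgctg
The match is GGAATG read on the opposite strand, begins 103 bases before the start (offset -103), and occurs on either strand in 12.63% of 27025 promoters of the same length. AP-1 (TGANTCA), TCF/LEF (ATCAAAG) and the CArG box, found in 6.87%, 3.23% and 1.4% of those promoters, had no match in this window. These letters describe the sequence and do not show that a factor binds there.

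Values are RPKM, reads per kilobase of a transcript relative to library size, so levels can be set side by side between genes. Read totals are not in the table, but ratios between low values put the deepest library at 4.00 times the depth of the shallowest. The libraries came from 8 sequencing runs. The 6 genes typical of palate mesenchyme (Prrx1, Twist1, Osr2, Pdgfra, Col1a2 and Col3a1) summed to between 413 and 854 RPKM in every library, with none at 0. Because a piece holds several cell types, fewer cells of a type and less RNA per cell cannot be told apart. Libraries of a compartment are called biological replicates in the study's results section. The labels do not say which came from separate embryos, so p-values measure the spread between these libraries.

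The 5 genes spanned a wide range of levels. Averaged over the 25 libraries, Ctgf stood at 18.8 RPKM, Cyr61 at 13.6, Wisp1 at 8.75, Nov at 4.53 and Wisp2 at 0.562. Among the 22399 genes above 0 in any library these means fell at percentiles 79.6, 72.1, 62.8, 52.0 and 31.4. Wisp1 had the widest contrast between compartments, with its highest compartment mean 8.28 times its lowest, against 4.59 for Ctgf, 3.71 for Nov and 2.24 for Cyr61. For Wisp2 the ratio was 5.55, but it rests on very few reads. A moderated F-test over the 8 compartments (limma, Benjamini-Hochberg over 11913 genes) gave F = 24.8 and adjusted p = 9.03e-06 for Wisp1 and F = 5.92 and adjusted p = 0.0245 for Ctgf. Cyr61 (adjusted p = 0.641) and Nov (0.739) did not pass, and Wisp2 was below the expression minimum of 5 RPKM in 3 libraries. Of all genes tested, 4.42% passed. The Ctgf call is lost when any anterior medial library, or anterior nasal replicate 2 or 3, is left out (highest adjusted p = 0.0913), and with sequencing run in the fit (adjusted p = 0.0555).

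**Figure D1:**
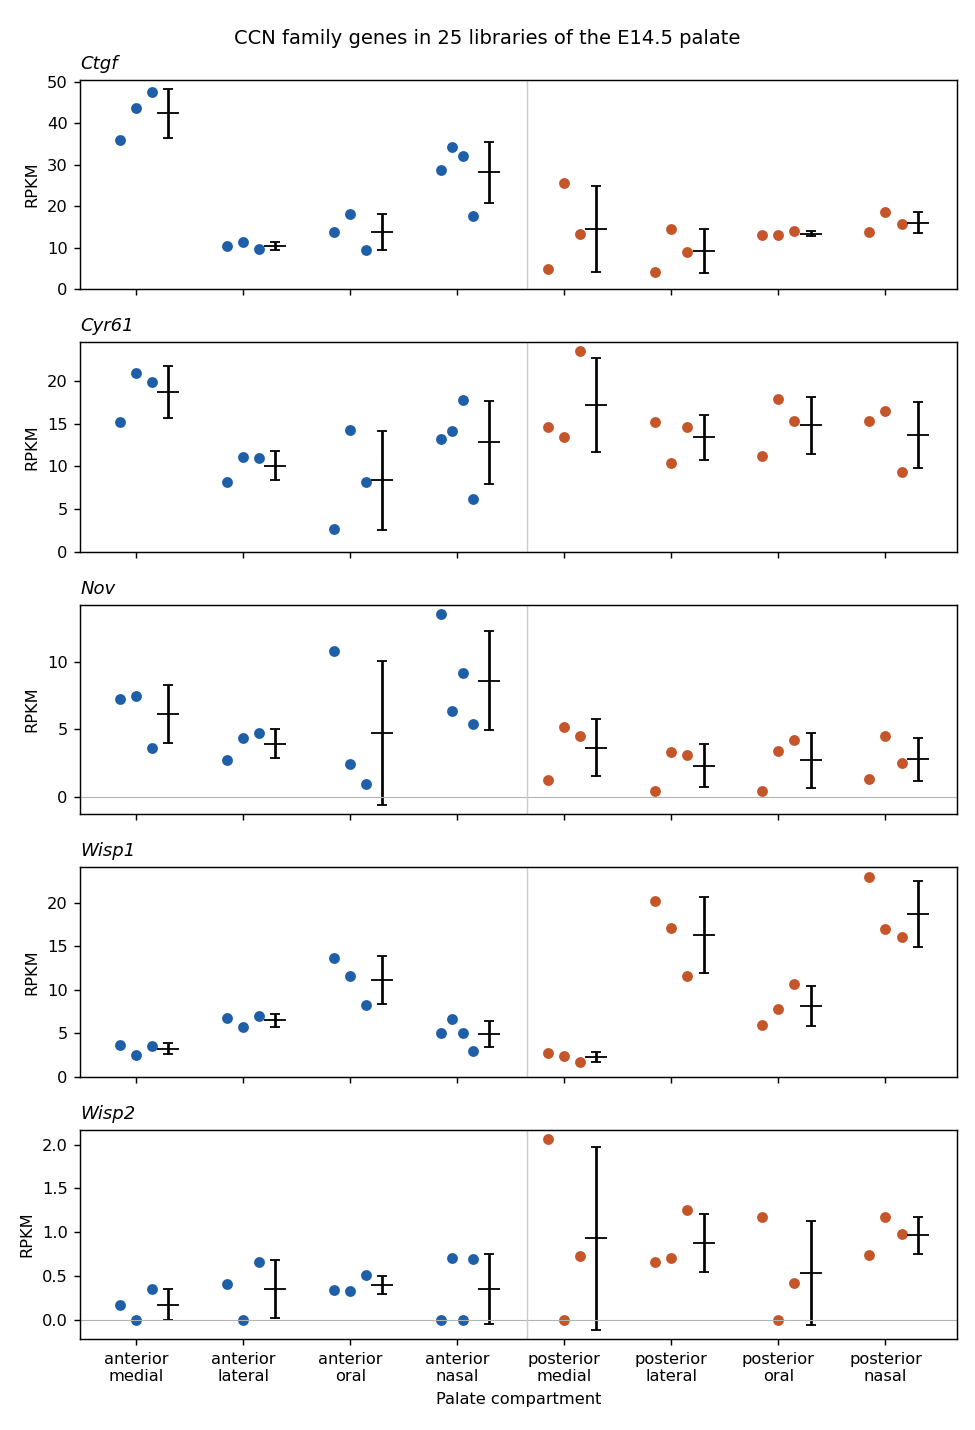
RPKM of each gene in the 25 libraries (points; blue anterior, orange posterior) with the mean and SD of each compartment (black, 3 libraries, 4 for anterior nasal); where the SD is larger than the mean the bar runs below 0. Ctgf is highest in the anterior medial compartment (mean 42.4) and Wisp1 in the posterior nasal and posterior lateral compartments (means 18.7 and 16.3).

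Ctgf, connective tissue growth factor, was highest in the anterior medial compartment, at the midline. The 3 libraries there read 35.9, 43.7 and 47.5 RPKM (mean 42.4 ± 5.87, SD, n = 3). All 22 libraries of the other 7 compartments were lower. The anterior nasal compartment came next, with 28.8, 34.2, 32.0 and 17.5 RPKM (28.1 ± 7.39, SD, n = 4). It did not overlap with the anterior medial compartment, but it did overlap with the posterior nasal one, the next in the order. The middle of the order was posterior nasal (16.0 ± 2.51), posterior medial (14.51 ± 10.4), anterior oral (13.7 ± 4.34) and posterior oral (13.3 ± 0.645), each SD over 3 libraries. Anterior lateral (10.5 ± 0.942) and posterior lateral (9.24 ± 5.25) closed the order. From posterior nasal down each compartment overlapped with its neighbour except posterior oral with anterior lateral. The posterior medial libraries were far apart, at 4.87, 25.5 and 13.2 RPKM, and the posterior lateral ones at 4.10, 14.6 and 9.03.

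Wisp1 followed a different map. It was highest in the posterior nasal compartment, at 23.0, 16.99 and 16.1 RPKM (18.7 ± 3.76, SD, n = 3), and in the posterior lateral one, at 20.2, 17.1 and 11.6 (16.3 ± 4.38, SD, n = 3). Both medial compartments were lowest, with 3.70, 2.49 and 3.56 RPKM in the anterior (3.25 ± 0.663) and 2.76, 2.37 and 1.65 in the posterior sector (2.26 ± 0.563). The other 4 compartments lay between, anterior oral at 11.2 ± 2.74, posterior oral at 8.14 ± 2.35, anterior lateral at 6.49 ± 0.712 and anterior nasal at 4.92 ± 1.51. Each compartment overlapped with its neighbour in this order, so the steps between neighbours are within their spread, while the ends of the order are far apart.

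Cyr61 was the most even of the genes above 1 RPKM. Compartment means ran from 18.7 RPKM in anterior medial to 8.35 in anterior oral, and every compartment overlapped with its neighbour in the order. Single libraries ranged from 2.71 RPKM, in anterior oral replicate 1, to 23.5, in posterior medial replicate 3.

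Nov was highest in the anterior nasal compartment, with 13.5, 6.34, 9.18 and 5.40 RPKM (mean 8.60), and lowest in the posterior lateral one, with 0.499, 3.37 and 3.09 (mean 2.32). Neighbours in the order all overlapped. The Nov values correspond to between 7 and 69 reads a library, with a median of 29, as inferred from the steps between low values (21 of 25 values were whole within 0.05 read).

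Nov was low in some sequencing runs, which were picked out after the values were seen. Replicate 1 of each posterior compartment, anterior nasal replicate 4 and anterior oral replicate 3 came from 3 of the 8 runs, and in these 6 libraries Nov read 0.448 to 5.40 RPKM, with a median of 1.13. In the other 19 libraries it read 2.42 to 13.5, with a median of 4.49. In each of these 6 libraries both Nov and Ctgf had the lowest value of their compartment. The same 6 were also the deepest, at 1.245 to 2.005 times the median depth, with the next library at 1.181. Run and depth therefore cannot be told apart here. With compartment in the fit, a term for run gave an adjusted p of 0.0955 for Nov and of 0.0894 for Ctgf (limma), neither of which passed. The unadjusted P from limma was 0.00203 for Nov and 0.00177 for Ctgf. For Wisp1 and Cyr61 the adjusted p was 0.727 and 0.819, and 1.4% of all genes passed.

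Wisp2 was near the limit of detection. It was listed at 0 in 6 of 25 libraries and its highest value was 2.06 RPKM, in posterior medial replicate 1. The values correspond to 0 to 20 reads, with a median of 3. Posterior libraries averaged 0.825 RPKM and anterior ones 0.320, and Wisp2 was above 0 in all 3 posterior nasal libraries (0.742, 1.17 and 0.9752), all 3 posterior lateral ones (0.665, 0.709 and 1.25) and all 3 anterior oral ones (0.344, 0.323 and 0.516). At this depth no fold change is given for Wisp2.

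In the anterior palate, lateral against medial, Ctgf and Wisp1 changed in opposite directions. Ctgf read 10.3, 11.5 and 9.58 RPKM in the lateral compartment, 4.01-fold below the medial one (log2 fold change -2.002, standard error 0.14, adjusted p = 0.00113 by limma). Wisp1 read 6.80, 5.67 and 6.99 RPKM in the lateral compartment and was 1.99-fold higher than in the medial one (log2 fold change 0.99, standard error 0.18, adjusted p = 0.0333). Cyr61 read 8.14, 11.1 and 11.04 RPKM in lateral and 15.3, 20.9 and 19.9 in medial libraries, a log2 fold change of -0.88 (standard error 0.18) that missed the threshold (adjusted p = 0.0536). All 3 genes separated the groups without overlap, as did 21.3% of the 10427 genes tested. At an adjusted p under 0.05, 2 of the 3 members tested were called, against 2.51% of all genes. Nov and Wisp2 were below the minimum, and Nov read 2.73, 4.37 and 4.76 RPKM in lateral and 7.24, 7.48 and 3.651 in medial libraries, which overlap.

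The Wisp1 difference in the anterior sector is fragile. Leaving out any 1 anterior medial library took its adjusted p to between 0.0518 and 0.0639, and leaving out any anterior lateral one took Wisp1 below the expression minimum. The Ctgf call held with each of the 6 libraries left out (highest adjusted p = 0.0106). When all 25 libraries shared 1 estimate of the spread, Ctgf had an adjusted p of 0.0734 and Wisp1 of 0.341. The 3 anterior medial libraries came from 1 run and the lateral ones from others, so there is no within-run value. A fit of all 25 libraries with run as a covariate, which links the runs through other compartments, gave -1.98 for Ctgf (standard error 0.55) and 1.47 for Wisp1 (standard error 0.57), with an adjusted p of 1.00 by limma for both. In that fit Cyr61 stood at 0.20 (standard error 0.91), against -0.88 without run.

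In the posterior palate, lateral against medial, Wisp1 showed the largest of its pairwise differences. The lateral libraries, at 11.6 to 20.2 RPKM, all lay above the medial ones, at 1.65 to 2.76, and the difference was 6.91-fold (log2 fold change 2.79, standard error 0.35). The groups did not overlap in 6.62% of genes. The adjusted p was 0.450, in a comparison in which limma called none of 10324 genes (0.0%) after adjustment, while 1.54% had an unadjusted P under 0.05 and 1.12% also had a fold change over 2. These thresholds, P under 0.05 and more than 2-fold, are those of the study, applied here to the unadjusted P. Wisp1 was the only member tested to meet those thresholds. With all 25 libraries in 1 fit the adjusted p of Wisp1 was 4.32e-05. Ctgf (log2 fold change -0.53, standard error 0.73) and Cyr61 (-0.33, standard error 0.34) overlapped between the groups, and the 95% interval for Ctgf ran from -2.29 to 1.23. Without posterior medial replicate 2 the Ctgf difference became 0.02.

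The difference itself was then compared between the sectors. For Wisp1 the posterior lateral-medial difference exceeded the anterior one by 1.80 on the log2 scale (standard error 0.38, adjusted p = 0.341). For Ctgf the interaction was 1.47 (standard error 0.80, adjusted p = 0.964). Neither passed, and 1 of 11089 genes (0.00902%) did. The lateral-medial difference of either gene is therefore not shown to differ between the sectors.

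From oral to nasal, Wisp1 ran in opposite directions in the 2 sectors. In the anterior palate the oral libraries read 13.7, 11.6 and 8.24 RPKM and the nasal ones 5.01, 6.68, 5.02 and 2.98, so that every oral library was above every nasal one. The groups did not overlap in 3.67% of genes. The log2 fold change was 1.19 (standard error 0.33, adjusted p = 0.885). In the posterior palate the oral libraries read 6.001, 7.77 and 10.7 RPKM and lay below all 3 nasal ones. The groups did not overlap in 11.8% of genes, and Wisp1 stood at -1.21 on the log2 scale (standard error 0.27, adjusted p = 0.0984).

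The difference between these contrasts was -2.40 on the log2 scale (standard error 0.44), with an adjusted p of 0.103 over 11442 genes, of which 0.035% were called by limma. When all 25 libraries shared the estimate of the spread the adjusted p was 0.0344. Because the groups did not overlap, the directions within sequencing runs could only be the same, so only the sizes add information. Oral was above nasal in 3 of 3 runs with anterior libraries of both kinds, by 1.44, 1.23 and 1.19 on the log2 scale, and below it in 2 of 2 such posterior runs, with log2 differences of -1.92 and -0.89.

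**Figure D2:**
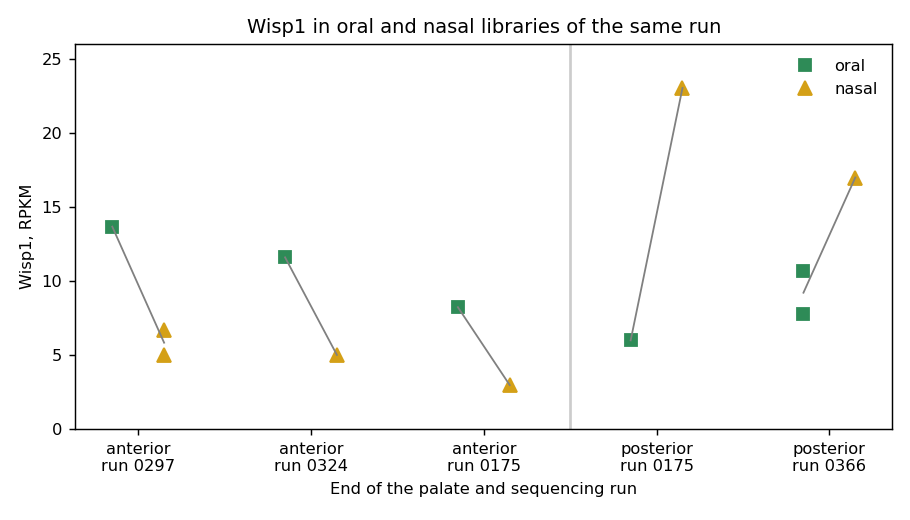
Wisp1 RPKM in oral (green squares) and nasal (yellow triangles) libraries sequenced in the same run, with lines between the run's means; posterior nasal replicate 3 had no oral library in its run and is not drawn. Oral lies above nasal in 3 of 3 anterior runs and below it in 2 of 2 posterior ones, as it must where the groups do not overlap.

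The other members showed no call between oral and nasal. In the anterior palate Ctgf read 13.7, 18.0 and 9.35 RPKM in oral against 17.5 to 34.2 in nasal libraries, -1.04 on the log2 scale (standard error 0.33, adjusted p = 1.00). Oral was the lower in each of 3 runs, with log2 differences of -0.90, -1.19 and -0.82. Nov (log2 fold change -1.38, standard error 0.71) and Cyr61 (-0.80, standard error 0.58) had intervals that included 0, and oral replicate 1 alone had 10.8 RPKM of Nov while the other oral libraries had 2.42 and 1.014. With same-numbered libraries as a block, which leaves nasal replicate 4 unused, Nov read -1.58 (standard error 0.54) and met the thresholds of the study, as did Ctgf (-1.25) and 1.97% of genes, while Wisp1 (0.97) fell short of 2-fold. No member passed after adjustment in that fit (adjusted p = 1.00 by limma). Without the block, limma called 0.0% of 10684 genes in this comparison, with 2.98% at an unadjusted P under 0.05, Ctgf and Wisp1 among them. Both also passed the study thresholds, as 1.44% of genes did. In the posterior palate Ctgf (-0.25, standard error 0.21) and Cyr61 (0.13, standard error 0.29) were near 0, and Wisp1 alone met the study thresholds, among 3.5% of genes. After adjustment 1.25% of genes were called, with no member among them.

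Along the anterior-posterior axis as a whole no member passed after adjustment, while 3.32% of 8608 genes did. Ctgf ranged from 9.35 to 47.5 RPKM (median 18.0) in the 13 anterior and from 4.10 to 25.5 (median 13.4) in the 12 posterior libraries, or -0.77 on the log2 scale as posterior minus anterior (standard error 0.31, adjusted p = 0.214). Wisp1 had a median of 5.67 RPKM in the anterior and 11.1 in the posterior libraries (log2 fold change 0.58, standard error 0.39, adjusted p = 0.518), and Cyr61 13.2 and 14.9 (0.36, standard error 0.24, adjusted p = 0.517). Of the 3 members tested, Ctgf alone had an unadjusted P under 0.05, as 15.3% of all genes did. Nov, which misses the minimum of 10 RPKM in 6 libraries, had a median of 5.40 RPKM in the anterior and 3.23 in the posterior libraries. Fitted without a minimum its log2 fold change was -1.12 (adjusted p = 0.211), and the 3 runs in which Nov was low hold 4 of the 12 posterior and 2 of the 13 anterior libraries.

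The axis was next read within each compartment. Calls in 1 compartment and not in another do not show that the axis difference varies between them. The 2 interactions above test that, and no member passed in their main fits, which hold only their own compartments. With all 25 libraries in 1 fit, as for the calls below, the oral-nasal interaction of Wisp1 did pass. Within the nasal compartment Wisp1 was 3.84-fold higher in the posterior than in the anterior libraries (log2 fold change 1.94, standard error 0.28, adjusted p = 0.000877), and within the lateral compartment 2.44-fold higher (1.28, standard error 0.30, adjusted p = 0.0491). Within the medial and oral compartments the Wisp1 values were -0.51 and -0.46 (standard error 0.30 each, adjusted p = 0.425 and 0.702). Ctgf was 3.54-fold lower in the posterior medial than in the anterior medial libraries (-1.82, standard error 0.46, adjusted p = 0.0473), and its values elsewhere were -0.78 in nasal, -0.35 in lateral and 0.01 in oral, none called. Centring each library on its median took the oral value to -0.10. The median of all genes was itself -0.12 in medial, -0.03 in lateral, 0.11 in oral and 0.11 in nasal, and centring moved it to 0.00 in oral and -0.02 in nasal.

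Of all genes, 1.66% were called in medial, 0.865% in lateral, 0.512% in oral and 1.91% in nasal, each by limma at an adjusted p under 0.05. The Wisp1 call in nasal held in all 25 refits with 1 library left out (highest adjusted p = 0.0107) and stood at 1.57 (adjusted p = 0.011) without the 6 libraries of the 3 runs. The Wisp1 call in lateral was lost in 15 of 25 refits, and the Ctgf call in medial in 19 of 25, in which the adjusted p reached 0.265 and 0.184. Without posterior medial replicate 1, the library with 4.87 RPKM of Ctgf, the Ctgf value was -1.19 (adjusted p = 0.0819). The 5 medial libraries that remain then are all of 1 run, so this is also the within-run value, from 2 posterior against 3 anterior libraries. Within a run Wisp1 was higher in posterior nasal by 2.91 (1 library against 1) and in posterior lateral by 1.00 (2 against 1). The direction of both follows from the lack of overlap between these groups.

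**Figure D3:**
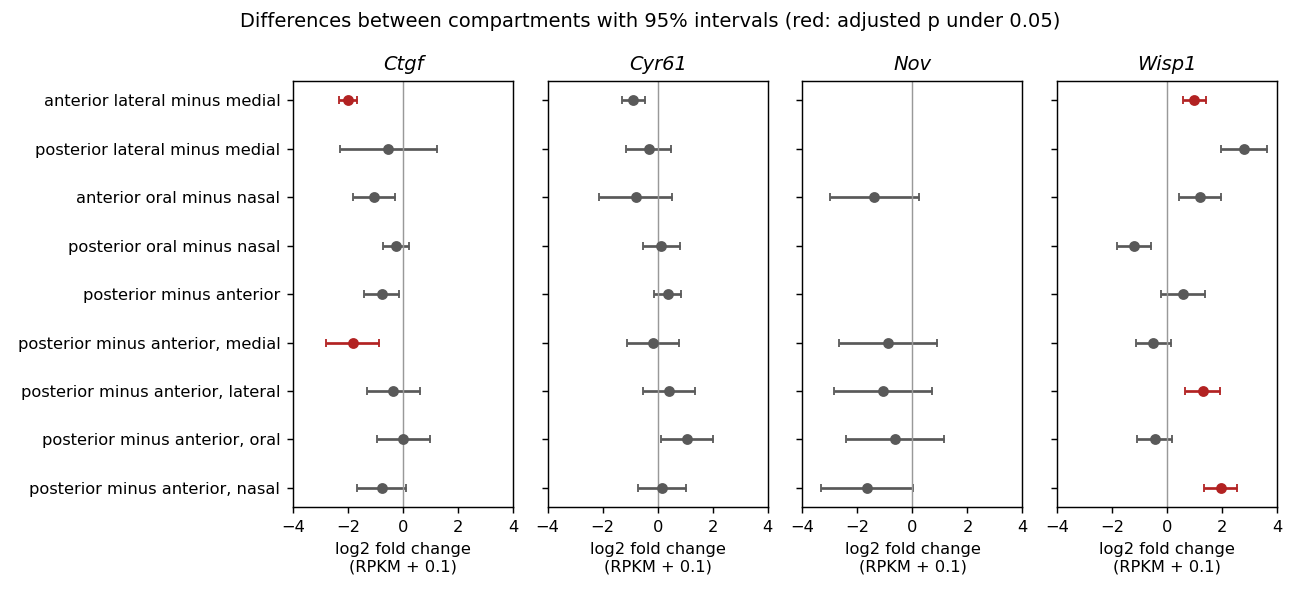
Log2 fold changes on RPKM + 0.1 with 95% intervals from limma for the 4 genes that met the expression minimum in any comparison; red marks differences called by limma at 0.05 after adjustment. Ctgf is called in anterior lateral minus medial (-2.002) and posterior minus anterior in medial (-1.82), and Wisp1 in anterior lateral minus medial (0.99) and posterior minus anterior in lateral (1.28) and nasal (1.94).

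Cyr61 and Nov were not called within any compartment. Cyr61 had its largest value in the oral compartment (1.08, standard error 0.45, adjusted p = 0.648), where anterior oral replicate 1 held 2.71 RPKM against 14.2 and 8.13 in the others. Nov was lower in all 3 posterior nasal libraries (1.34, 4.50 and 2.53 RPKM) than in any anterior nasal one (log2 fold change -1.66, standard error 0.80, adjusted p = 0.425). The groups did not overlap in 20.3% of genes there.

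The shares of the 5 genes in their summed RPKM varied over the palate, as given here with no test. Wisp3, another family gene, is not in these sums. Ctgf held 57.7% to 63.3% of the summed RPKM of the 5 genes in the anterior medial libraries, while Wisp1 held 3.34% to 5.94%. In the posterior lateral libraries Wisp1 held 29.3% to 49.7%, and in the posterior nasal ones 29.4% to 42.6%. Ctgf exceeded Cyr61 by 2.09 to 2.38 times in the anterior medial and by 1.80 to 2.85 times in the anterior nasal libraries. In the anterior lateral libraries the same ratio was 0.868 to 1.27, in the posterior oral ones 0.726 to 1.15 and in the posterior nasal ones 0.894 to 1.68. It was far from even within the other compartments, from 1.15 to 5.07 in anterior oral, 0.334 to 1.90 in posterior medial and 0.269 to 1.40 in posterior lateral libraries.

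**Figure D4:**
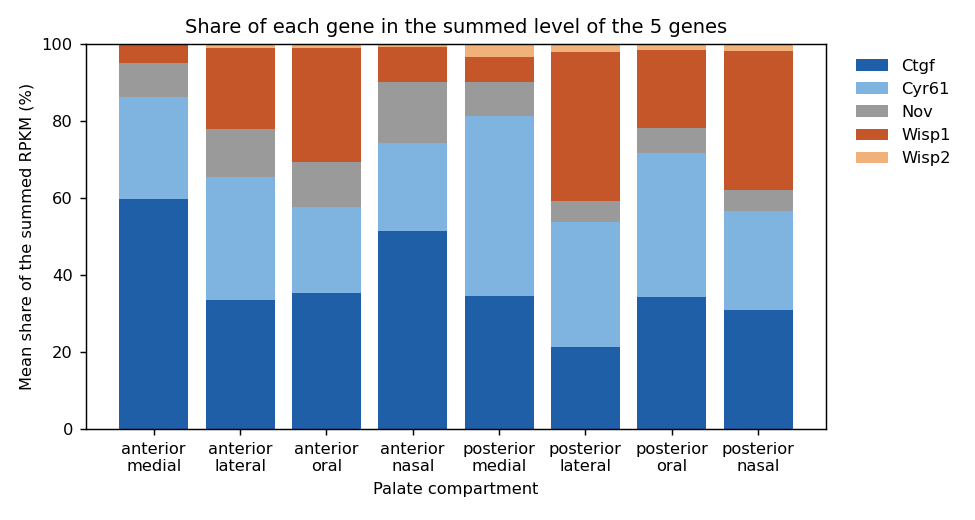
Mean share (%) of each gene in the summed RPKM of the 5 genes, per compartment (3 libraries, 4 for anterior nasal). Ctgf takes 59.9% in anterior medial and 21.5% in posterior lateral, and Wisp1 4.68% and 38.7%.

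Across the 25 libraries, on the log2 scale, Ctgf and Nov had a Pearson correlation of 0.65, Ctgf and Cyr61 of 0.24, Wisp1 and Wisp2 of 0.34 and Ctgf and Wisp1 of -0.36. Nov and Wisp2 had -0.54 and Ctgf and Wisp2 -0.51, and the remaining pairs lay between -0.32 and -0.07. These describe libraries that share compartments and runs, among them the 6 in which Ctgf and Nov were both lowest of their compartment. The genes most like each member over the same libraries were Cyp26b1, which breaks down retinoic acid (0.86, and 0.90 over the 8 compartment means), Slc5a7 (0.81) and Id1 (0.78) for Ctgf. For Wisp1 they were Egfr, the EGF receptor (0.80, and 0.86 over the means), Cmya5 (0.76) and Abca1 (0.76). They were S1pr3 (0.84), Hist1h3b (0.82) and Trabd (0.81) for Cyr61, Cnn3 (0.84), Cd300a (0.84) and 5031426D15Rik (0.83) for Nov, and Zfp9 (0.79), Dkc1 (0.73) and Cfdp1 (0.72) for Wisp2. Each is the top of 11913 genes, and the Wisp2 and Nov values rest on few reads.

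In the anterior lateral-medial comparison, where Ctgf was lower in lateral, 6 gene lists were read beside it. The part of these genes in the CCN values was not tested, here or in the other comparisons. Over all genes tested there, 2.51% were called and 1566 of 10427 (15%) had an unadjusted P under 0.05. Of 75 list entries, in which a gene on more than 1 list counts once for each list, 24 (32%) had such a P. Among them were 5 of 14 YAP and TAZ targets, 4 of 10 TGF-beta and 1 of 6 Wnt response genes. Of 18 YAP, TAZ and TEAD pathway genes tested, none was called by limma (4 had an unadjusted P under 0.05), and their median log2 fold change was -0.03, as was that of all genes. Yap1 read 0.01 and its partner Wwtr1, which encodes TAZ, -0.05. Of 14 other target genes of these factors, 2 were called, both higher in lateral, the receptor kinase Axl (0.61, adjusted p = 0.0474) and Ccdc80 (1.47, adjusted p = 0.0132), while Ctgf was lower there. None of 15 immediate early genes was called (6 at an unadjusted P under 0.05). Of 10 TGF-beta response genes, Tgfbi (-1.12, adjusted p = 0.00649) and Pmepa1 (-0.94, adjusted p = 0.03) were lower in lateral, as Ctgf was. Among 6 Wnt response genes the transcription factor Tcf7 was lower in lateral (-1.50, adjusted p = 0.0205), where Wisp1 was higher, and Axin2, the standard Wnt readout, read 0.01. None of 12 CCN receptors and partners, such as the integrins and Lrp6, was called (4 at an unadjusted P under 0.05).

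In the posterior lateral-medial and the anterior oral-nasal comparisons limma called no gene of these 6 lists. In the first, 5 of 75 list entries had an unadjusted P under 0.05 (6.67%, against 1.54% of all genes), 2 Wnt, 2 TGF-beta and 1 target of YAP and TAZ. Both Wnt response genes, Axin2 (-0.82) and Apcdd1 (-1.14), had lower values in lateral libraries, where Wisp1 was higher, and neither passed after adjustment (adjusted p = 0.957 by limma). In the second, 3 of 81 entries had an unadjusted P under 0.05 (3.7%, against 2.98% of all genes), 2 immediate early and 1 TGF-beta. The 7 Wnt response genes tested there had a median log2 fold change of -0.39, while Wisp1 read 1.19. Between posterior oral and nasal, 14 of 79 entries had an unadjusted P under 0.05 (17.7%, against 8% of all genes). Tcf7 (-2.36, adjusted p = 0.00326 by limma) and the Wnt antagonist Dkk1 (-1.71, adjusted p = 0.0212) were lower in oral. This is the direction of the Wisp1 value of -1.21, which did not pass. Of the 7 Wnt response genes tested only these 2 were called, and Axin2 read -0.26. The targets of YAP and TAZ split, with F3 lower (-1.21) and Foxf2 higher (1.87) in oral, and the integrin Itga6 was higher (1.21). Along the axis Tead1 was lower in the posterior palate (-0.51, adjusted p = 0.0014), as was the integrin Itgav (-0.50, adjusted p = 0.0111). Tgfbi (0.68) and Col1a1 (0.46) were higher and Fn1 (-0.34) was lower. Within the nasal compartment, where Wisp1 was higher in the posterior libraries, Tead1 (-0.77), its cofactor Vgll3 (-2.15) and Foxf2 (-1.56) were lower. Tead1 also read lower in medial (-0.36), lateral (-0.45) and oral (-0.44), without a call. In lateral, where Wisp1 was also called, Amot (0.95) and Tgfbi (1.16) were called higher and Acta2 (-2.22) lower. In medial, where Ctgf was called, no list gene was. There 17 of 85 entries, 5 of them YAP, TAZ and TEAD pathway genes, had an unadjusted P under 0.05, against 1726 of 11913 genes. In lateral and nasal 16.5% of entries had such a P, against 5.37% and 11.9% of all genes.

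Markers of cartilage and bone differed between some of the same compartments and not in step with the members throughout. The summed level of 7 cartilage markers was 77.7 to 127 RPKM in anterior medial libraries, where Ctgf was high, and 26.6 to 30.4 in anterior lateral ones, with Sox9 (-2.36) and Acan (-2.55) called lower in lateral among 4 markers tested. No cartilage marker was at 0 in all libraries of either group. The cartilage sum was 74.3 to 124 RPKM in anterior nasal libraries too. It overlapped with or exceeded these levels where Ctgf means were only 13.3 to 16.0 RPKM, at 100.9 to 156 in posterior nasal, 74.8 to 118 in posterior oral and 74.5 to 100.1 in posterior medial libraries. In posterior lateral libraries it was 61.1 to 85.5 and in anterior oral ones 43.7 to 59.2. The summed level of 7 osteoblast markers was 378 to 550 RPKM in posterior nasal libraries, where Wisp1 was highest, against 92.4 to 121 in anterior nasal and 83.8 to 107 in posterior oral ones, and none of the 7 was at 0 throughout any of these groups. All 4 osteoblast markers tested were lower in posterior oral than nasal libraries, with log2 fold changes of -6.22 for Ibsp, -3.08 for Sp7, -1.64 for Alpl and -1.18 for Runx2. In the posterior lateral libraries, the other place of high Wisp1, the osteoblast sum was 50.4 to 155 RPKM, with Bglap at 0 in all 3, against 68.0 to 74.3 in posterior medial ones. In the anterior oral libraries, where Wisp1 was above anterior nasal, the sum was 47.0 to 75.4, below that of anterior nasal. In anterior lateral libraries, where Wisp1 was above anterior medial, the osteoblast sum was 58.6 to 196, against 72.9 to 110 in medial ones, and of 2 markers tested Runx2 was called lower in lateral (-1.54, adjusted p = 0.0248 by limma) while Alpl (0.50) was not called. Of the 6 mesenchyme markers, Osr2 alone was called there, higher in lateral (0.96). In anterior lateral against medial, 7 other marker lists were read. Of 6 smooth muscle and pericyte markers, 2 were called higher in lateral (Actg2 4.36 and Myh11 3.07). Of 5 epithelial and of 3 nerve markers, 1 was called higher and 1 lower. None was called among 7 endothelial, 4 red cell, 2 macrophage and 1 skeletal muscle markers. All 7 endothelial markers had an unadjusted P under 0.05, against 15% of all genes, with a median log2 fold change of 0.45. Of the red cell, macrophage and skeletal muscle markers 0, 1 and 0 had such a P. In posterior oral against nasal all 7 endothelial markers also had such a P, against 8% of all genes. Their median there was 1.08, and Emcn was called higher in oral. The part of these cell types in the CCN values was not tested.

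Wisp3, the remaining family gene and not 1 of the 5, read 0 to 17.1 RPKM, was highest in the anterior lateral libraries (9.51 to 17.1) and had a log2 fold change of 0.91 there against medial (adjusted p = 0.119).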

How the data were processed

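RNA from 25 microdissected samples of the E14.5 palate was amplified, tagmented and sequenced. The authors deposited 1 table of RPKM values, made in GeneSpring from single-end reads after reads with several alignments and duplicate reads had been removed. The submitters' notes name TopHat and mm9, and the gene annotation is not given in the sources used here. Removing duplicates can lower short, highly expressed genes.

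Groups were read from the labels, and sequencing runs from alignment names in the headings of the study's own gene tables. The heading of 1 value column, anterior medial replicate 2, names an alignment in place of the unit and was read as RPKM. Pairs of compartments were compared with limma 3.58.1 in R 4.3.3 (lmFit, eBayes, two-sided) on log2(RPKM + 0.1), over genes of at least 5 RPKM in at least 3 compared samples, and the axis over genes of at least 10 RPKM in at least 6. The axis within compartments and the F-test used 8 compartment means over all 25 samples, and each interaction its 4 compartments. Fold changes are on that log scale and understate low genes. Benjamini-Hochberg adjustment ran over all genes tested. A gene was called at an adjusted p under 0.05. The study asked for P under 0.05 and more than a 2-fold change and does not mention an adjustment. For the axis it used another test, on pooled samples. The fits were tested on simulated data. Python 3.11.15 with pandas 2.3.3, numpy 2.4.6 and matplotlib 3.10.9 made the tables and plots.

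Depth was inferred from ratios of low values, of which 549 of 552 were the same by way of another library. The table holds no read counts, so no counting interval is given. Of the 37406 genes, 15007 are at 0 throughout.

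The members and gene lists were chosen with earlier results of these data known. The text names the 5 members, set context genes, at most 2 called genes in each direction from each list, and the 3 genes most alike to each member. Wisp3, Apcdd1, Osr2 and the library-level values were singled out after they were seen. Marker lists for 10 cell types were also read, and those for cartilage, bone and mesenchyme are given as they stand beside the compartments where members differ. Between anterior oral and nasal libraries the deviations of same-numbered samples correlated at 0.24, 0.21 and 0.13, and the block is given beside that comparison. Between posterior lateral and medial libraries they correlated at 0.23, 0.04 and 0.28, so the correlations do not single out the first comparison. The block was fitted in every comparison as an alternative. The pairing comes from the data, as runs do not follow the numbers.

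Alternatives were pseudocounts of 1 and 0.01, median centring, quantile normalization, a mean-variance trend, no expression minimum, the replicate number as a block, all 25 samples in 1 fit, run as a covariate, each library left out, and for the axis compartment as a covariate and a minimum of 5 RPKM. Leaving out the 6 libraries of 3 runs was added after the data were seen.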

Additional observations from a re-analysis of the deposited data

Results flagged for a closer look

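The oral-nasal difference of Wisp1 was opposite in the anterior and posterior palate. Every oral library lay above every nasal one in the anterior sector and below every nasal one in the posterior sector, which is why the result is given here. The test of the difference, posterior less anterior, gave -2.40 on the log2 scale (95% interval -3.36 to -1.44), which did not pass over all genes (limma, adjusted p = 0.103) in the 13 oral and nasal libraries. With each of the 13 left out in turn it lay between -2.61 and -2.19. Osteoblast marker sums were 378 to 550 RPKM in posterior nasal and 83.8 to 107 in posterior oral libraries, and 92.4 to 121 in anterior nasal and 47.0 to 75.4 in anterior oral ones. Their part in the Wisp1 values was not tested.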

How the results depend on the processing

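Of the 2 members called in anterior lateral against medial, 1 was called without an expression minimum, 0 with all 25 samples in 1 fit and 0 with run as a covariate. With 1 library left out Ctgf was called each time and Wisp1 never. Cyr61, not called in the main fit, then had a lowest adjusted p of 0.0495 by limma. The log2 fold changes of Ctgf and Wisp1 with all 25 samples were the same and with run -1.98 and 1.47, with larger standard errors. The 1 call in posterior lateral against medial (Wisp1) and the 1 in the oral-nasal interaction (Wisp1) appeared only with all 25 samples in 1 fit. Of the 3 calls for the axis within compartments, 1 held with a pseudocount of 0.01, with median centring, without a minimum and with run as a covariate, and 1 to 3 with 1 library left out. The F-test called 1 member in place of 2 with run as a covariate, and 1 to 2 with 1 library left out.

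Cyr61 reversed with run as a covariate, to 0.20 in anterior and 0.42 in posterior lateral against medial and -0.19 in posterior oral against nasal, and Ctgf to 0.26 for the axis in lateral. Within oral Ctgf reversed to -0.10 under median centring and under quantile normalization, and within medial Wisp1 to 0.0207 under quantile normalization. Without the 6 libraries of 3 runs, Ctgf turned to 0.14 in lateral and -0.22 in oral, Cyr61 to -0.26 in nasal, and the Nov medial-lateral interaction to 0.0201. None of these was called in either setting. With 1 library left out, values that crossed 0 were Ctgf in posterior lateral against medial (-1.16 to 0.0227), Cyr61 in posterior oral against nasal (-0.13 to 0.31), the axis for Ctgf in lateral (-0.77 to 0.14) and oral (-0.24 to 0.23), Nov in oral (-1.37 to 0.33) and Cyr61 in nasal (-0.17 to 0.41), and the Nov medial-lateral interaction (-0.80 to 0.64). The causes were not tested.

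With the replicate number as a block, 3 members were called in anterior lateral against medial (Cyr61 adjusted p = 0.0386), 3 for the axis within compartments and 2 by the F-test, and 0 elsewhere. Within nasal the block, which drops the unpaired anterior nasal library, turned Cyr61 to -0.17. The block changed no other call. Cyr61 in anterior lateral against medial also passed with a pseudocount of 1 (adjusted p = 0.0422) and with a mean-variance trend (0.0313). Wisp1 there had an adjusted p of 0.0958 with the trend. Depth limits Wisp2 most.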
